A study of Mus musculus with 21 samples.

Results

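Clone 2 (iNS2) and clone 3 (iNS3) are a pair of separately numbered neural stem cell clones made by converting mouse embryonic fibroblasts, and their gene expression was compared directly. The members of the comparison were the 7 of 21 arrays whose state label names induced neural stem cell clone 2 (3 arrays) or clone 3 (4 arrays), and every probe with 1 gene symbol was read. The series as a whole asks whether fibroblasts can be converted straight into neural stem cells that keep dividing, and the comparison of these clones asks how far 2 lines from the same kind of conversion differ. All clones carry the Oct4-GiP reporter of the fibroblasts they came from, and their titles call them Oct4-GFP neural stem cells. The lines set beside them were another clone (iNS5, 4 arrays), neural stem cells from mouse forebrain that were not converted (NS, 3 arrays) and the reporter fibroblasts themselves (MEF, 4 arrays). Embryonic stem cells (ES, 3 arrays) were not compared with the pair. They entered the normalisation, the choice of genes and probes tested, and the estimate of the spread. Each clone is 1 line, the arrays of a line are technical replicates, and the p-values below therefore measure the spread between hybridisations of these 2 lines, not between independent conversions.

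Neural stem cells held in culture with growth factors divide as a rather uniform population of radial glia-like progenitors. They express Sox2, nestin, brain lipid-binding protein and Olig2, and they keep the capacity to form neurons, astrocytes and oligodendrocytes. A clone is a line grown from a single founder cell. The state labels number the clones and do not say whether each came from a separate conversion.

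Levels are log2 intensities after background correction and quantile normalisation, on which 1 unit is a 2-fold difference. Differences are iNS2 minus iNS3 with their standard error (SE), and n is 3 against 4 arrays throughout. A gene was called where limma's treat test, which asks for more than a 2-fold difference, gave a Benjamini-Hochberg adjusted p under 0.05 over all 10449 genes tested. Between 14941 and 15874 of 45281 probes were above background (detection p under 0.01) on the 7 arrays. Across genes, arrays of the same clone correlated at 0.9943 to 0.9963 and arrays of different clones at 0.9801 to 0.9818; genes are not independent replicates. All iNS2 arrays and iNS3 replicates 1 to 3 lay on 1 slide, and iNS3 replicate 4 lay on another with the NS arrays. For the 50 called genes among those named by rule, leaving iNS3 replicate 4 out moved the difference by at most 0.16 (Myadm, from 2.70 to 2.86). Within the shared slide alone it moved by at most 0.18, again for Myadm.

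Of 7 neural stem cell markers, 5 were above background on every array of both clones. Sox2, a transcription factor that maintains neural stem cells, was at 10.09 ± 0.06 (SD, n = 3) in iNS2 and 9.06 ± 0.18 (SD, n = 4) in iNS3, a difference of 1.03 ± 0.08 SE that did not pass the 2-fold test (limma adjusted p = 1). Nes, which encodes the intermediate filament nestin, was at 11.64 and 11.93, Fabp7, the brain lipid-binding protein, at 8.42 and 8.66, Olig2, a progenitor transcription factor, at 8.86 and 7.89, and Vim, vimentin, at 12.93 and 13.19, and none of these was called. Pax6 and Msi1 of the same marker list were above background on no array of either clone. No Pax6 probe was above background on every array of any of the 6 lines, NS included. The fibroblast markers Col1a1, Col1a2, Col3a1, Thy1, Dcn, Lum, Bgn and Postn were above background on 0 of 7 arrays, as were the oligodendrocyte markers Mbp, Mog and Mag, the neuronal markers Tubb3, Rbfox3, Snap25 and Stmn2, and the endothelial markers Pecam1, Cdh5 and Kdr. Dcx, of migrating neuroblasts, was above background on 2 iNS2 arrays. Of the astrocyte markers, Gfap and Aldh1l1 were above background on no iNS2 array and on all 4 iNS3 arrays, and Aqp4 on 2 arrays of each clone. Of the myeloid markers, Ptprc was above background on no array, and Csf1r and Aif1 on 1 iNS3 array each. Of the embryonic stem cell markers, Nanog, Zfp42 and Dppa5a were above background on no array, Pou5f1 on 1 array of each clone, and Esrrb on all 7. In RNA from whole cultures, fewer cells of a type and less RNA per cell cannot be told apart.

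Of the 10449 genes tested, 99 were called (0.947%): 36 were higher in iNS2 (0.345%) and 63 higher in iNS3 (0.603%). The median absolute difference over all genes was 0.185, and 302 genes differed by more than 2-fold in their means. The arrays of the clones did not overlap for 4269 genes (40.9%), and they did not overlap for any of the 99 called genes. Called differences ran from 6.35 (Ddit4l, higher in iNS2) to -5.88 (Mcts1, higher in iNS3). They exceeded 3 log2 units for 20 genes, 9 higher in iNS2 and 11 higher in iNS3, and 19 lay at 1.5 or below. A test against no change at all, with the same arrays, called 3823 genes (36.6%), 1724 higher in iNS2 and 2099 higher in iNS3. In the same fit iNS2 against iNS5 gave 213 calls (2.04%) and iNS3 against iNS5 gave 404 (3.87%); these comparisons share arrays with one another, and whether the counts differ was not tested.

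**Figure D1:**
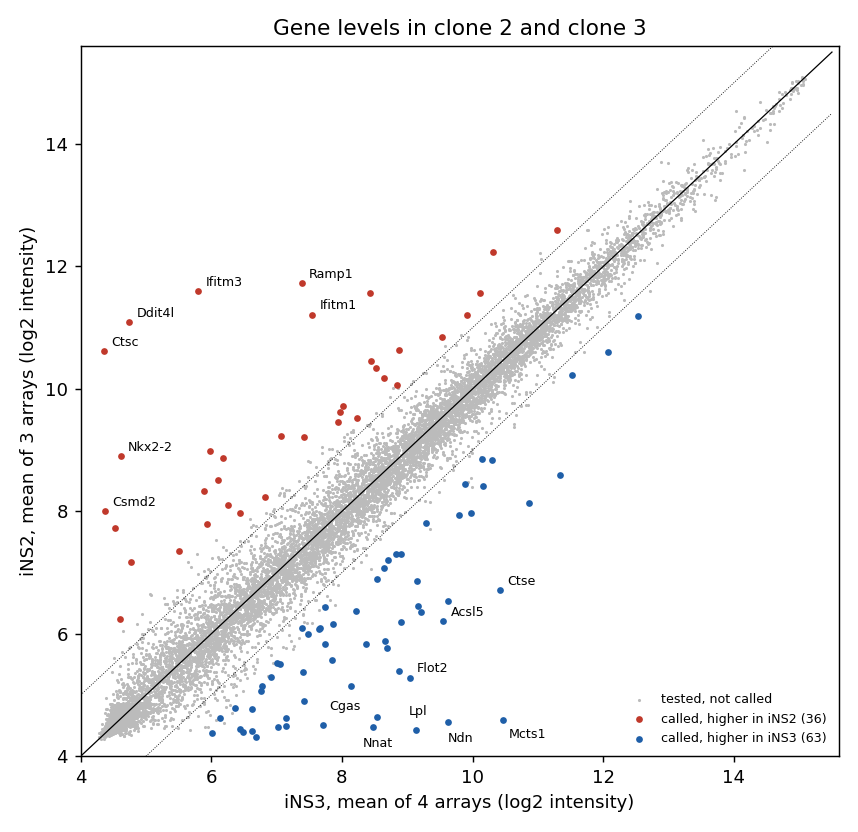
Mean log2 intensity of each tested gene in iNS2 (vertical, 3 arrays) against iNS3 (horizontal, 4 arrays). Red points are the 36 genes called higher in iNS2, blue points the 63 called higher in iNS3 and grey points the rest, with dotted lines at a 2-fold difference. A row of called genes lies near the floor of each axis, where 1 clone was not above background, from Ddit4l and Ctsc on the left to Mcts1 and Ndn at the bottom.

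Of the 20 genes that differed by more than 3 log2 units, 11 were measured in 1 clone and not above background on any array of the other. In all there were 26 such called genes, 7 above background in iNS2 alone of the pair and 19 in iNS3 alone. For these the fold is given as a lower bound, the bright clone's mean over the dimmest signal that counted as above background on the dim clone's arrays. Chromosomes are those of the RefSeq annotation.

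Ddit4l on chromosome 3, an inhibitor of mTORC1 signalling related to the stress gene Ddit4, read 11.10, 11.09 and 11.10 in iNS2 and 4.95, 4.45, 4.70 and 4.87 in iNS3. All iNS2 arrays were high and all iNS3 arrays sat at background, so that the level was at least 50.4-fold higher in iNS2 (6.35 ± 0.09 SE, limma adjusted p = 2.2e-19). The other lines resembled iNS2: Ddit4l was at 11.14 ± 0.07 (SD, n = 4) in iNS5, 10.95 ± 0.06 (SD, n = 3) in NS and 8.68 ± 0.11 (SD, n = 4) in MEF. Ctsc on chromosome 7, which encodes the lysosomal protease cathepsin C, read 10.66, 10.62 and 10.56 in iNS2 and 4.43, 4.36, 4.31 and 4.34 in iNS3. It was at least 36.2-fold higher in iNS2 (6.25 ± 0.07 SE, limma adjusted p = 9.7e-21), again with no overlap. A pair of further Ctsc probes ran the same way, with differences of 4.67 and 3.70. Ctsc was at 10.04 in iNS5, 11.46 in NS and 10.07 in MEF, so that iNS3 alone among these lines lay at background.

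Mcts1 on the X chromosome, a factor that works with Denr in translation re-initiation, showed the reverse pattern. It read 4.53, 4.57 and 4.67 in iNS2 and 10.50, 10.45, 10.47 and 10.45 in iNS3, at least 33.4-fold higher in iNS3 (-5.88 ± 0.05 SE, limma adjusted p = 1.5e-22). All iNS2 arrays were at background, while the mean was 10.89 in iNS5, 10.79 in NS and 11.35 in MEF. Ndn on chromosome 7, the paternally expressed imprinted gene of necdin, a growth suppressor of postmitotic neurons, read 4.62, 4.50 and 4.55 in iNS2 and 9.55, 9.67, 9.66 and 9.62 in iNS3. It was at least 18.6-fold higher in iNS3 (-5.07 ± 0.06 SE, limma adjusted p = 2.4e-20), and was at 8.91 in iNS5, 10.37 in NS and 12.44 in MEF. Mcts1, Ndn and Ddit4l were each measured by 1 probe, so no further probe on the array bears on them. Cross-hybridisation of these probes to related transcripts, such as a retrocopy of Mcts1, was not examined.

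Lpl on chromosome 8, lipoprotein lipase, read 4.50, 4.32 and 4.48 in iNS2 and 9.12, 9.19, 9.16 and 9.08 in iNS3, at least 13.2-fold higher in iNS3 (-4.70 ± 0.07 SE, limma adjusted p = 3.5e-18). Cgas on chromosome 9, the sensor of DNA in the cytosol that starts the STING pathway, read 4.67, 4.53 and 4.72 against 8.42, 8.62, 8.52 and 8.56, at least 8.71-fold higher in iNS3 (-3.89 ± 0.06 SE, limma adjusted p = 4.4e-18). In both genes every iNS2 array was at background and every iNS3 array well over it. The second probe of each was above background on no array of either clone. The means in iNS5, NS and MEF were 8.67, 9.27 and 10.69 for Lpl and 10.07, 8.36 and 9.06 for Cgas. Nnat on chromosome 2, the paternally expressed imprinted gene of neuronatin, read 4.38, 4.46 and 4.58 in iNS2 and 8.57, 8.47, 8.36 and 8.54 in iNS3, at least 8.42-fold higher (-4.01 ± 0.11 SE, limma adjusted p = 1.6e-13). The other Nnat probes past the filter differed by -2.32 and -2.90, in the same direction. Unlike the genes above, Nnat was not above background in MEF, while iNS5 was at 9.60 and NS at 9.09.

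Transcription factors and signalling genes made up most of the remaining named genes of this kind. Nkx2-2 on chromosome 2, a homeodomain factor of ventral progenitors and of the oligodendrocyte lineage, read 8.96, 8.93 and 8.82 in iNS2 and 4.56, 4.69, 4.46 and 4.76 in iNS3, at least 11.1-fold higher in iNS2 (4.29 ± 0.13 SE, limma adjusted p = 3.9e-13). Its second probe differed by 2.14. The groups did not overlap, and Nkx2-2 was above background on 1 of 4 iNS5 arrays, on all 3 NS arrays at 6.38 ± 0.20 (SD), and on no MEF array. Gpr17 on chromosome 18, a receptor of differentiating oligodendrocyte precursors, was at least 4.92-fold higher in iNS2 (3.21 ± 0.13 SE), with 1 of 4 iNS5 arrays and no NS or MEF array above background. Csmd2 on chromosome 4, a membrane protein with complement-type domains, was at least 5.90-fold higher in iNS2 (3.62 ± 0.14 SE). It was at 10.19 in iNS5, higher than on any iNS2 array (7.94 to 8.06), and at background in NS and MEF. A second Csmd2 probe was above background on no array of either clone. Plp2 on the X chromosome and Casp8 on chromosome 1, the initiator caspase of death receptors, were at least 3.32-fold and 1.74-fold higher in iNS2, and neither was above background in iNS5. Plp2 was above background on all 3 NS and all 4 MEF arrays, and Casp8 on 2 NS arrays and all 4 MEF arrays. A second Casp8 probe differed by 1.11 and was not called.

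In the other direction, En2 on chromosome 5, the homeobox gene of the midbrain and anterior hindbrain, was at 4.90 ± 0.12 (SD) in iNS2 and 7.42 ± 0.09 in iNS3, at least 4.03-fold higher in iNS3 (-2.52 ± 0.11 SE, limma adjusted p = 4.1e-09). iNS5 (7.61) and NS (8.72) were on the side of iNS3, and MEF was at background. Efna5 on chromosome 17, an ephrin ligand of axon guidance, was at least 4.94-fold higher in iNS3 (-3.19 ± 0.09 SE, limma adjusted p = 7.4e-13). Of the pair, iNS5, NS and MEF, Efna5 was above background only in iNS3 and in MEF, where it stood at 10.66. A second Efna5 probe was above background on no array of either clone. The other 12 genes above background in iNS3 alone of the pair differed by -2.65 to -1.50, and their lower bounds were 3.34-fold or less; the list runs Cldn34c1, Mup6, Mamdc2, Nme5, Cxcl1, Pla2g7, Cbln4, Gsc, Spink10, Pou4f1, Irx2 and Gypc.

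Of these 26 genes, 14 were above background on every iNS5 array, 3 on some and 9 on none. In NS the split was 16, 2 and 8, and in MEF 14, 2 and 10. Cgas, Ctsc, Cxcl1, Ddit4l, Lpl, Mamdc2, Mcts1 and Ndn were above background on every array of iNS5, NS and MEF, so that for these 8 genes 1 clone of the pair stood apart from those lines and from its partner. Ctsc and Ddit4l were at background in iNS3, and the other 6 in iNS2.

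**Figure D2:**
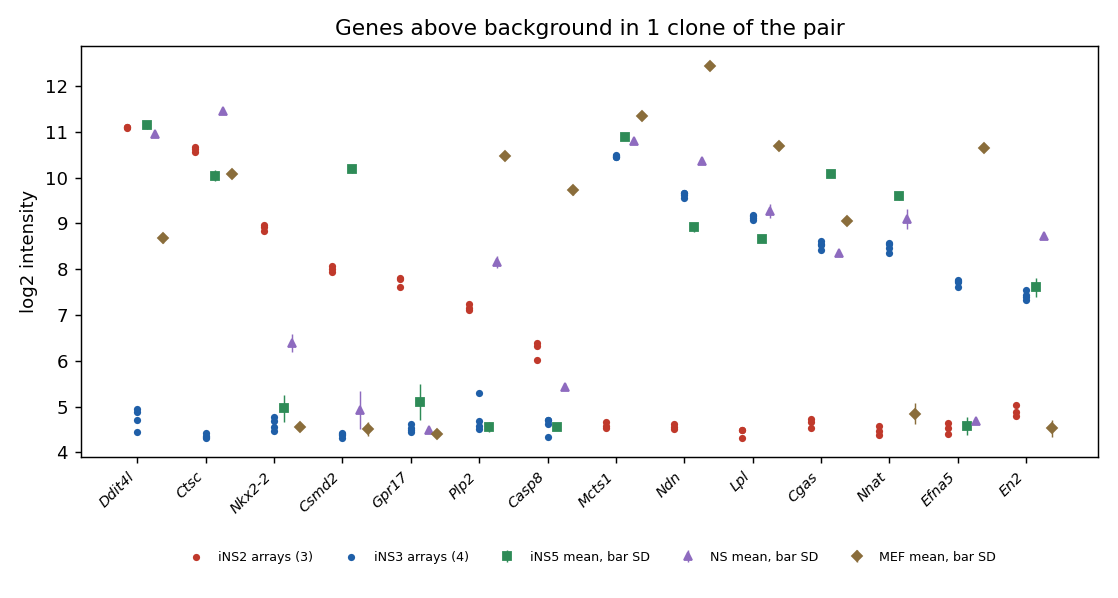
Log2 intensity of the 14 named genes that were above background in only 1 clone of the pair. Dots are single iNS2 arrays (red) and iNS3 arrays (blue); squares, triangles and diamonds are the means of iNS5, NS and MEF with bars of 1 SD. The dim clone lies at about the floor of the array in each gene, and for Ddit4l, Ctsc, Mcts1, Ndn, Lpl and Cgas it is the only one of the 5 lines drawn there.

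For the 14 named genes of this kind the nearest tested gene on either side that did not overlap it was read. Of these 28 neighbours none was called, beside 0.947% of all genes tested. At that share few or no calls would fall among 28 genes, so the count does not show whether neighbours differ. Some lay near the floor in both clones, such as Ooep (4.48 in iNS2 and 4.47 in iNS3) and Gja4 (4.53 and 4.5), and could not show a call. The gaps ran from 0.242 kb (Cgas to Mto1) to 3590 kb (Efna5 to Nudt12), so some neighbours lay far away. Beside Mcts1, Cul4b differed by -0.17 ± 0.09 SE and C1galt1c1 by -0.47 ± 0.20 SE. Beside Ndn, the imprinted gene Mkrn3 differed by -0.32 ± 0.11 SE, and beside Cgas, Mto1 differed by 0.13 ± 0.07 SE. Rab38 beside Ctsc showed the most, -1.11 ± 0.13 SE, opposite to Ctsc and short of the 2-fold test (limma adjusted p = 1; against no change, 1.4e-06).

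The 250 bases before the annotated start of 3 of these genes are shown because the genes were at background in 1 clone of the pair and above it in iNS5, NS and MEF, with CpG dinucleotides, the sites of DNA methylation, in capitals. The windows are from RefSeq on GRCm38.p6, 5′ to 3′ on the gene's strand, and all 3 genes lie on the plus strand. They are chrX:38600221-38600470 for Mcts1 (the first of 2 windows listed for it), chr7:62348027-62348276 for Ndn and chr3:137623422-137623671 for Ddit4l.
Mcts1: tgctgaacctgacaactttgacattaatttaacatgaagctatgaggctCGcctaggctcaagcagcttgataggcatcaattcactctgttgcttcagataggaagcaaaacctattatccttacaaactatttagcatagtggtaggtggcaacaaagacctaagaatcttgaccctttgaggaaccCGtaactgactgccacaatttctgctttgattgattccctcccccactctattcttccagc
Ndn: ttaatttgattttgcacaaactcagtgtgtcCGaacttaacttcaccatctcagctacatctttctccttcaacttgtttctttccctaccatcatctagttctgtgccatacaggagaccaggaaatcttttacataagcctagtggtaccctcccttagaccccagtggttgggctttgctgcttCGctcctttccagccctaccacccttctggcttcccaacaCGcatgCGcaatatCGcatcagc
Ddit4l: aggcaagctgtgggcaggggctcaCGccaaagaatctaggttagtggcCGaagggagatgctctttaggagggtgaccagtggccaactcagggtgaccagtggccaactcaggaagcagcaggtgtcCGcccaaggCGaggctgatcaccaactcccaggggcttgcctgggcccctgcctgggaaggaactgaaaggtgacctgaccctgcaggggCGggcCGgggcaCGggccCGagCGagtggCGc
The Mcts1 window holds 2 CpG dinucleotides, the Ndn window 5 and the Ddit4l window 10. Among the 8424 tested genes with a window the median was 16, with quartiles of 9 and 23. The 76 called genes with a window had a median of 11.5, and the 17 with 1 clone at background had a median of 10. No methylation was measured in these lines.

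Among the called genes above background on every array of both clones, 28 were higher in iNS2 and 36 higher in iNS3, so that a fold change could be read. The largest difference among those higher in iNS2 was that of Ifitm3. It is described here with Ifitm1 and Ifitm2, which lie in the same cluster on chromosome 7 and, like it, encode interferon-induced transmembrane proteins that restrict the entry of viruses. Ifitm3 read 11.63, 11.66 and 11.51 in iNS2 and 5.92, 5.74, 5.67 and 5.88 in iNS3, 55.6-fold higher in iNS2 (5.80 ± 0.09 SE, limma adjusted p = 3.5e-18). Ifitm1 read 11.24, 11.33 and 11.06 against 7.42, 7.69, 7.61 and 7.48, 12.6-fold higher (3.66 ± 0.09 SE, limma adjusted p = 3.6e-14). Ifitm2 read 12.21, 12.33 and 12.15 against 10.21, 10.37, 10.29 and 10.36, 3.8-fold higher (1.92 ± 0.06 SE, limma adjusted p = 3.4e-10). In each of the 3 genes all iNS2 arrays lay over all iNS3 arrays. The iNS5 means fell between the clones at 8.40 (Ifitm3), 9.23 (Ifitm1) and 11.52 (Ifitm2), and MEF stood over all clones at 14.83, 14.37 and 14.12. The Ifitm1 value rests on 1 probe: its other 4 probes past the filter were above background on no array of either clone and differed by -0.05 to 0.10. Cross-hybridisation of that probe to transcripts of the neighbouring Ifitm genes was not examined. With the mean of all detected probes in place of the brightest, Ifitm1 differed by 0.76 and was not called.

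The rest of the interferon response and antigen presentation list did not follow. Of its 34 tested members 3 were higher in iNS2, the Ifitm genes, 1 was higher in iNS3 and 30 were not called, with a median of 0.02 beside -0.029 over all genes. The share called was 11.8%, beside 0.947% over all genes tested. Gbp3, a guanylate-binding GTPase, was the member higher in iNS3 (-1.75 ± 0.08 SE, limma adjusted p = 2.7e-06). B2m, the light chain of class I molecules, differed by 0.23, Irf1 by 0.16 and Ifit2 by -0.41. The Ifitm windows are shown because these neighbouring genes were each called higher in iNS2 on their brightest probe; a match to GAAANNGAAA, the core of the interferon-stimulated response element, searched on both strands, is in capitals. They lie at chr7:140967826-140968075 (Ifitm1, plus strand), chr7:140955962-140956211 (Ifitm2, minus strand) and chr7:141010745-141010994 (Ifitm3, minus strand), RefSeq on GRCm38.p6.
Ifitm1: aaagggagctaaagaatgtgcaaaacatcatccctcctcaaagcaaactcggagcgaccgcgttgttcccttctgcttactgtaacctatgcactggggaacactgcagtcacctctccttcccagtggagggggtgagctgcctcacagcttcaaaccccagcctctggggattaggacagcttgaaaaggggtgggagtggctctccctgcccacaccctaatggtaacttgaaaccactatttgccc
Ifitm2: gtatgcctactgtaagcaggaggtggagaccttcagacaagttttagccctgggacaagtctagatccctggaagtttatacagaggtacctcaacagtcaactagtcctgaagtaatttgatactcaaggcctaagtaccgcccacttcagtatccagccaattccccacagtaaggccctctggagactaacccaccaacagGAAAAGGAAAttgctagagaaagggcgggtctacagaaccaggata
Ifitm3: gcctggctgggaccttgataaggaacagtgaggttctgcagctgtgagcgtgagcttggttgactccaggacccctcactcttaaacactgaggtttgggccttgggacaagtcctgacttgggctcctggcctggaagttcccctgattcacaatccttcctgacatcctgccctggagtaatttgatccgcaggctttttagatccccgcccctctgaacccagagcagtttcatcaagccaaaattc
Ifitm2 has 1 match, starting 46 bases before the gene's start, and the windows of Ifitm1 and Ifitm3 do not hold these letters. A match occurred in 2.62% of the windows of all tested genes and in 4 of the 76 windows of called genes (5.26%), those of Gbp3, Igf2bp3, Ifitm2 and Gstt1.

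Ramp1 on chromosome 1, the accessory subunit of the receptor for calcitonin gene-related peptide, read 11.84, 11.66 and 11.69 in iNS2 and 7.54, 7.20, 7.12 and 7.67 in iNS3, 20.3-fold higher (4.34 ± 0.14 SE, limma adjusted p = 1.6e-12). iNS5 (11.68) and NS (11.15) were near iNS2. Acta2 on chromosome 19, smooth muscle actin, read 11.63, 11.62 and 11.46 against 8.41, 8.40, 8.42 and 8.48, 8.82-fold higher (3.14 ± 0.06 SE, limma adjusted p = 6.1e-16), with no overlap. It was at 15.04 in MEF, 10.16 in NS and 7.43 in iNS5, so that iNS2 and iNS5 lay on opposite sides of iNS3. Cavin3, a coat protein of caveolae, was 7.98-fold higher in iNS2, Myadm 6.5-fold, Car3, a carbonic anhydrase, 5.42-fold and Shd, an SH2 domain adaptor, 5.3-fold. A second Shd probe differed by 1.22 and was not called. For Myadm, iNS3 replicate 4 read 6.65 and the other iNS3 arrays 6.01 to 6.02, all under the iNS2 range of 8.82 to 8.95.

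Among genes measured in both clones and higher in iNS3, Ctse led. This gene on chromosome 1, the aspartic protease cathepsin E, read 6.72, 6.83 and 6.6 in iNS2 and 10.41, 10.41, 10.57 and 10.28 in iNS3, 13-fold higher (-3.70 ± 0.10 SE, limma adjusted p = 2.5e-13), with iNS5 between them at 9.09. Acsl5 on chromosome 19, which activates long-chain fatty acids, was 10.2-fold higher in iNS3 (-3.35 ± 0.06 SE, limma adjusted p = 6.1e-16), and its second probe differed by -1.57. Reln on chromosome 5, the extracellular guidance protein reelin, read 6.33, 6.58 and 6.18 in iNS2 and 9.40, 9.14, 9.11 and 9.17 in iNS3, 7.18-fold higher (-2.84 ± 0.17 SE, limma adjusted p = 1.8e-07). The iNS3 arrays were all higher, NS was near them at 8.83, and 2 of 4 iNS5 arrays were above background. The other probes of Reln and Ctse were above background on no array of either clone. Slc24a3, a sodium, calcium and potassium exchanger, was 8.54-fold higher, Gstt1, a glutathione transferase, 7.64-fold, and the mRNA-binding protein gene Igf2bp3 6.89-fold. Gm2a, the lysosomal activator of ganglioside GM2 breakdown, was 6.64-fold higher and B3gat1, a glucuronyltransferase of the HNK-1 epitope, 6.63-fold. Flot2, of membrane microdomains, and the neuronal membrane protein gene Slitrk5, both chosen after their values were seen, were above background on 1 of 3 iNS2 arrays and on all iNS3 arrays, with means of 5.28 and 9.04 for Flot2 and 5.39 and 8.88 for Slitrk5.

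**Figure D3:**
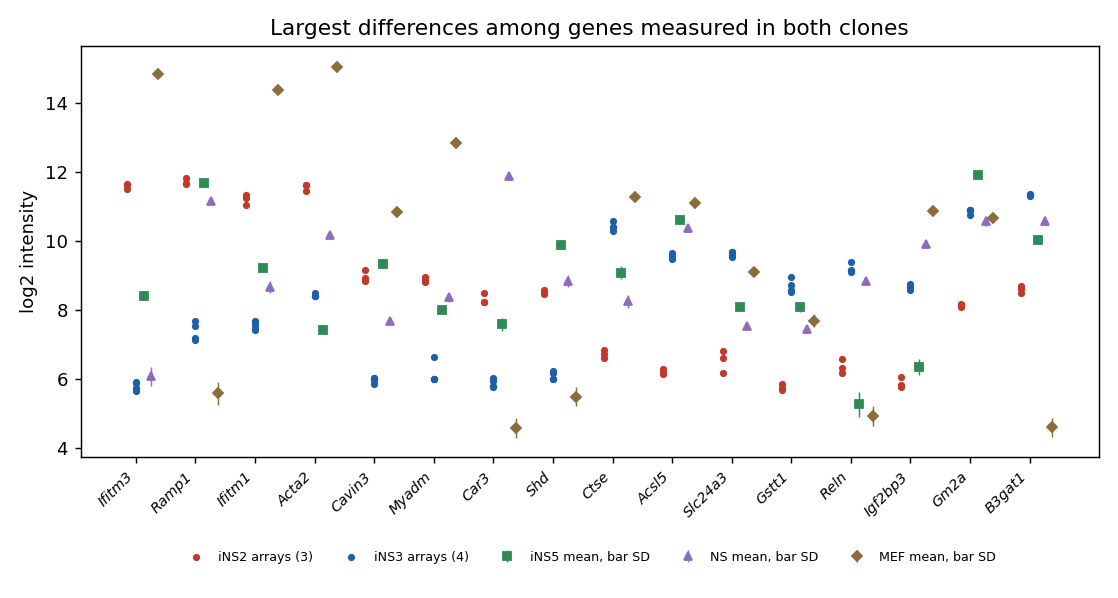
Log2 intensity of the 8 genes with the largest difference in each direction among those above background on every array of both clones. Dots are single iNS2 arrays (red) and iNS3 arrays (blue), and squares, triangles and diamonds are the means of iNS5, NS and MEF with bars of 1 SD. No gene has overlapping iNS2 and iNS3 arrays, and iNS5 is near iNS2 for Ramp1 and Cavin3, near iNS3 for Gstt1, and outside both for Acta2 and Reln.

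The other lines were placed by which clone of the pair their mean was nearer to, which does not show that a level is shared. Of the 99 called genes, the mean lay outside the range between the clones' means for 50 in iNS5, 39 in NS and 82 in MEF. Over the 99 called genes, the iNS5 mean was nearer to iNS2 for 54 (54.5%) and nearer to iNS3 for 45. NS was nearer to iNS2 for 44 and to iNS3 for 55, and MEF for 39 and 60. For the 36 genes higher in iNS2, iNS5 was nearer to iNS2 for 23 and NS for 22. For the 63 genes higher in iNS3, iNS5 was nearer to iNS3 for 32 and NS for 41. These positions are a description of genes chosen for their difference between the pair, and the sides were not tested against each other.

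Among 24 tested genes listed for neural stem cells and radial glia, 1 was higher in iNS2, 1 higher in iNS3 and 22 were not called, with a median of -0.103. That is 8.33% called, beside 0.947% over all genes tested, and no list was tested as a set. Hes5, a transcriptional target of Notch, was higher in iNS2 (9.76, 9.62 and 9.79 against 7.91, 8.12, 8.15 and 7.88; 3.27-fold, 1.71 ± 0.10 SE, limma adjusted p = 6.3e-05). Gli3, which transduces and represses Hedgehog signals, was higher in iNS3 (6.73, 6.91 and 6.96 against 9.06, 9.17, 9.25 and 9.11; 4.87-fold, -2.29 ± 0.08 SE, limma adjusted p = 7.4e-10). Neither gene's arrays overlapped between the clones. Slc1a3, a glial glutamate transporter at 14.51 and 14.60, Sox9 at 12.73 and 12.85, and Vim were not called. In the Notch pathway, 2 of 21 tested members were called, both higher in iNS2: Hes5 and Mfng, a glycosyltransferase that modifies Notch receptors (1.54 ± 0.10 SE, limma adjusted p = 0.0018). The Mfng call was lost under the other background correction (1.10), on the slide that held both clones (adjusted p = 0.09) and with only the 7 arrays of the pair (0.074). The Notch list's median was -0.038, and its share called was 9.52%.

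Glial and regional lists differed as follows. Of 13 tested oligodendrocyte lineage genes, 2 were higher in iNS2, Nkx2-2 and Gpr17, none was called higher in iNS3, and the median was 0.33. This list had 15.4% called, beside 0.947% over all genes tested. Olig1, at 14.74 and 14.85, Bcas1 and Sox8 were not called. Of 17 astrocyte genes none was called. Gfap, the astrocyte intermediate filament, was above background on no iNS2 array and on all 4 iNS3 arrays, at 5.18 ± 0.23 (SD) and 6.35 ± 0.19, without passing the 2-fold test (-1.17 ± 0.14 SE, limma adjusted p = 1). Of 6 midbrain and hindbrain genes, En2 and Irx2 were higher in iNS3 (33.3% called). Irx2, an Iroquois homeobox gene, was above background in iNS3 alone of the pair, at least 1.94-fold higher (limma adjusted p = 0.014). The Irx2 call was lost without iNS2 replicate 2 (adjusted p = 0.15) or 3 (0.12) and without iNS3 replicate 3 (0.060). None of the 4 forebrain genes, 21 Hox genes or 13 neuronal genes was called, and Hoxa7 differed by 0.92, Otx1 by 0.60 and Map2 by -0.41. Members at background in both clones could not show a call, and they were not counted apart.

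Genes of cell division were read as cell cycle genes and as inhibitors and p53 targets. None of 29 cell cycle genes was called, beside 0.947% over all genes tested, a share that would give few or no calls among 29. Their differences ran from -0.51 to 1.24, and the median was -0.037. Against no change, 2 of them were higher in iNS2 and 7 higher in iNS3. Of 22 cell cycle inhibitors and p53 targets, 2 were higher in iNS2 and 2 higher in iNS3, and the list's median was -0.477, beside -0.029 over all genes. In this list 18.2% were called, beside 0.947% over all genes tested. The neighbouring CDK inhibitor genes Cdkn2b (7.61, 7.86 and 7.92 against 6.10, 5.85, 5.95 and 5.86; 1.86 ± 0.13 SE, limma adjusted p = 0.00031) and Cdkn2a (10.82, 10.92 and 10.78 against 9.51, 9.59, 9.64 and 9.40; 1.31 ± 0.07 SE, limma adjusted p = 0.017) were higher in iNS2. Neither was above background in iNS5. The p53 targets Ccng1 (-1.34 ± 0.07 SE, limma adjusted p = 0.010) and Fas (-1.30 ± 0.07 SE, limma adjusted p = 0.027) were higher in iNS3. Cdkn1a, the p53-induced inhibitor p21, differed by -1.10 ± 0.05 SE with no overlap between arrays (10.60, 10.57 and 10.65 against 11.72, 11.63, 11.73 and 11.75) but did not pass the 2-fold test. Against no change, 5 members of this list were higher in iNS2 and 13 higher in iNS3, in a comparison that called 36.6% of all genes. On the brightest probe, Cdkn2a, Ccng1 and Fas were near the threshold. The further Cdkn2a probes differed by 1.89, which was called, and by 1.1, which was not. Further probes past the filter differed by -0.78 for Fas and by -0.36 and -0.31 for Ccng1, and none of these was called. Leaving out iNS2 replicate 3 raised the adjusted p of Ccng1 to 0.11, and leaving out 1 array raised that of Cdkn2a to 0.052 to 0.16 (iNS2 replicates 1 and 2, iNS3 replicates 1 and 4) and that of Fas to 0.10 to 0.18 (iNS2 replicates 2 and 3, iNS3 replicates 2 and 4).

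Imprinted genes gave 2 calls of 21 tested (9.52%, beside 0.947% over all genes), Ndn and Nnat, both higher in iNS3. The list's median was 0.016. The other 19 imprinted genes ranged from -0.72 to 1.11, 11 above and 8 below 0, and Mest, Gnas and Snurf differed by 0.04, 0.56 and -0.18. Of 33 fibroblast and mesenchyme genes, Acta2 was higher in iNS2 and Col6a1, a chain of collagen VI, higher in iNS3 (-1.64 ± 0.09 SE, limma adjusted p = 5.4e-05). These calls were 6.06% of that list, and its median was 0.021. Among 28 pluripotency genes none was called, a count that includes any members at background in both clones. Klf4 and Myc, used elsewhere as reprogramming factors, differed by -0.30 ± 0.12 SE and 0.00 ± 0.13 SE, and Pou5f1 by -0.10. Xist, the RNA of X inactivation, was above background on no array of either clone.

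The EGF and FGF, Wnt, BMP and TGF-beta, and axon guidance lists held 1 call each. Their shares called were 4.55%, 3.03%, 3.03% and 3.12%, beside 0.947% over all genes tested. Dusp4, a phosphatase that dampens MAP kinases, was the 1 called of 22 EGF and FGF genes (-1.61 ± 0.08 SE, limma adjusted p = 3.6e-05). Its other probes past the filter differed by -0.66 and -0.15 and were not called, and the gene's call was lost with the mean of probes (-0.81) and with arrays scaled to a common median (adjusted p = 0.09). Egfr, at 12.31 and 12.36, differed by -0.05. Sfrp1, a secreted Wnt antagonist, was the 1 called of 33 Wnt genes (-2.02 ± 0.14 SE, limma adjusted p = 9.6e-05), with 1 of 3 iNS2 arrays above background. Its second probe differed by -1.93, and the call was lost under the other background correction (-1.19) and on the shared slide alone (adjusted p = 0.088). Tgfbr2, the type II receptor of TGF-beta, was the 1 called of 33 BMP and TGF-beta genes (-1.46 ± 0.07 SE, limma adjusted p = 0.00046), and its call was lost with the mean of probes (-0.78) and with arrays scaled to a common median. Efna5 was the 1 called of 32 axon guidance genes. All 4 genes were higher in iNS3. Of 23 lectican, tenascin and neural proteoglycan genes, the sulfotransferase gene Chst3 was higher in iNS2 (1.78 ± 0.12 SE) while the sulfotransferase gene Chst2 (-1.47 ± 0.10 SE) and the link protein gene Hapln4 (-1.47 ± 0.12 SE) were higher in iNS3. The Chst2 call was lost without iNS2 replicate 1 (adjusted p = 0.092), and the Hapln4 call without any 1 of iNS2 replicates 2 and 3 and iNS3 replicates 2 to 4 (adjusted p = 0.11 to 0.39). Of 30 ion channel genes, the voltage-gated potassium channel gene Kcnd2 was higher in iNS2 (2.01 ± 0.11 SE, limma adjusted p = 3.4e-06) and the background potassium channel gene Kcnk1 higher in iNS3 (-2.53 ± 0.11 SE, limma adjusted p = 7.8e-09). Shares called were 13% for the lectican, tenascin and proteoglycan list and 6.67% for the ion channels. None of 30 integrin, laminin and collagen genes or 27 cadherin and protocadherin genes was called.

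None of 27 cholesterol and fatty acid synthesis genes, 28 glycolysis and hypoxia genes or 25 serine, glycine and amino acid stress genes was called. The cholesterol list had the highest median of the 3, 0.186, and Fdps differed by 0.48 ± 0.05 SE. Of 30 NRF2 target and glutathione genes, Gpx1, the cytosolic glutathione peroxidase, was higher in iNS2 (1.30 ± 0.06 SE, limma adjusted p = 0.0026) and Gstt1 higher in iNS3. These calls were 6.67% of the list, beside 0.947% over all genes tested. The Gpx1 call was lost on the shared slide alone (adjusted p = 0.13), with only the 7 arrays of the pair (0.057) and with arrays scaled to a common median (0.13). No call fell among the few tested members of the sex-linked, myeloid and lymphoid, endothelial, muscle and epithelial lists, which held 4, 4, 7, 7 and 11. These counts too include any members at background in both clones.

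**Figure D4:**
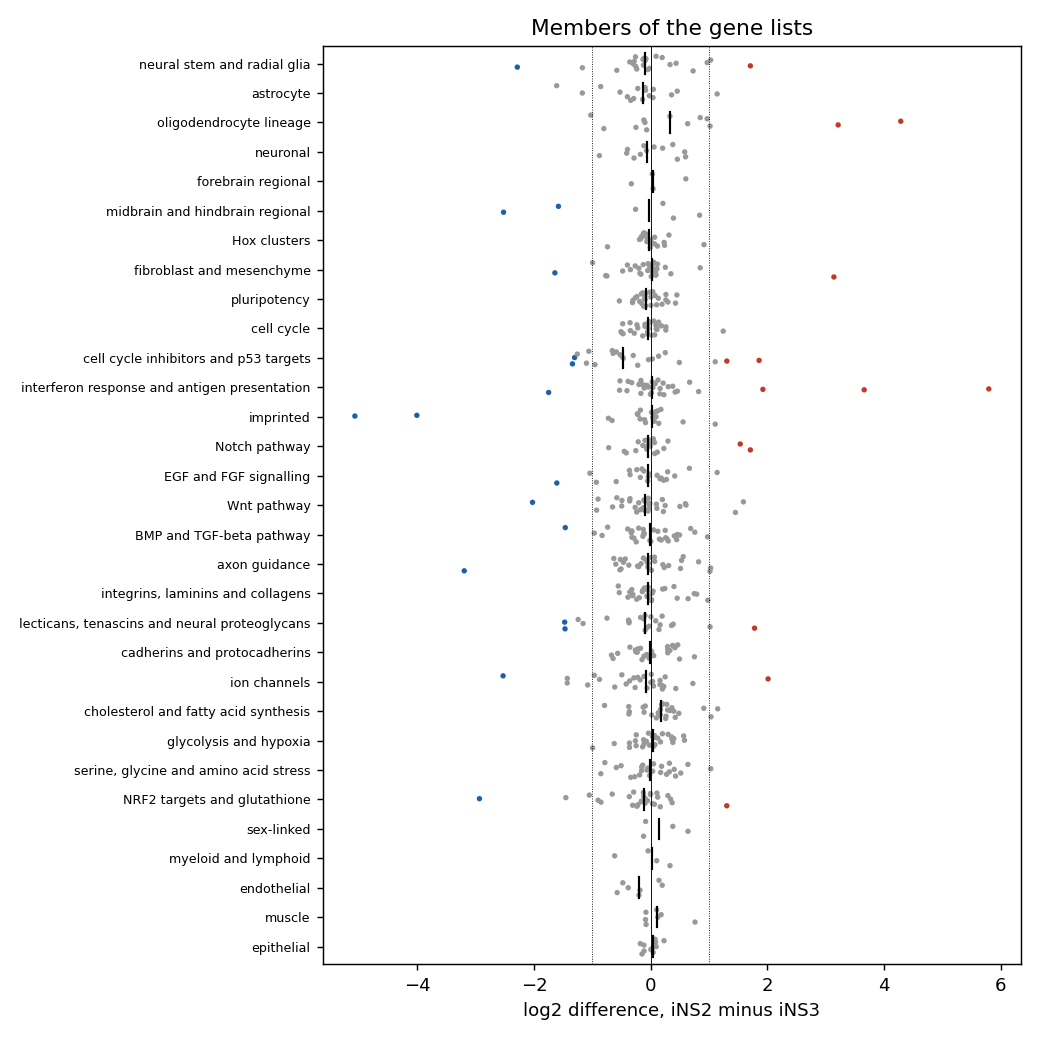
Log2 difference, iNS2 minus iNS3, of each tested member of the 31 gene lists. Red and blue points were called higher in iNS2 and in iNS3, grey points were not called, black bars are the list medians and dotted lines mark a 2-fold difference. Most members lie within 1 unit of 0, and the points farthest out are Ifitm3, Nkx2-2, Ifitm1 and Gpr17 on the iNS2 side and Ndn, Nnat and Efna5 on the iNS3 side.

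Called genes lay on every autosome and on X. The median difference of a chromosome's genes ran from -0.106 on chromosome 8 to 0.017 on chromosome 18 among the autosomes, with -0.024 on X. Chromosome 8 held 566 tested genes, of which 6 were called (1.06%, beside 0.947% over all genes), all higher in iNS3, among them Lpl, Kcnk1, Sfrp1, Dusp4 and Hapln4. Its median lay between -0.119 and -0.093 when each single array was set against the mean of the other clone. The share called was 1.23% on chromosome 7, which holds the Ifitm genes, and was highest on chromosome 19 (1.6%).

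Where a called gene had another probe past the filter, it mostly moved the same way. Of the 99 called genes, 44 had 1 probe on the array and 40 had a further probe past the filter. In 36 of those 40 every further probe past the filter differed in the direction of the brightest, and in 22 at least 1 further probe was itself called. A direction was counted even for probes at background in both clones, as for Tgfbr2 (-0.10). The 4 with a further probe in the other direction, chosen after their values were seen, were Ifitm1, Tbrg1, Rbbp7 and Ptprk, whose discordant probes differed by at most 0.30 in size. Ramp1 had a second probe at 1.25 that was not called, and the further probes of Ccng1 differed by -0.36 and -0.31. Probes that failed the filter did not show the difference, for example those of Reln, Ctse, Lpl, Cgas, Efna5, Csmd2, Slitrk5 and Gli3. They differed by -0.16 to 0.25 and were above background on no array of either clone. Each of these 8 calls rests on 1 probe.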

How the data were processed

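Total RNA was extracted with RNeasy, made into biotinylated cRNA with MessageAmp and read on Illumina MouseWG-6 V2 BeadChips, per the labels' protocols. The authors deposited a scanner intensity for each probe, a linear mean bead signal with background included, and a detection p-value beside it, per the file headers. They also deposited scaled intensities, each column a straight line of the scanner signal (largest residual 0.115), with column medians of 6.7 to 8.3 and a mean of 379.2; no centring was found, and how its background was set is unknown. GenomeStudio is the tool in the submitters' processing notes.

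Of 45281 probes, 34885 had 1 gene symbol, 18 several and 10378 none. Scanner intensities were normalised with neqc (offset 16) in limma 3.58.1 under R 4.3.3. A probe was kept if all arrays of 1 or more of the 6 lines were above background (15972), and the brightest stood for its gene (10449 genes). All 21 arrays entered 1 fit with 15 residual degrees of freedom (median residual SD 0.13), tested with treat against 2-fold. The number of arrays limits the precision, with a median of 41 to 43 beads per probe.

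The text names the 8 called genes with the largest differences measured in both clones and the 7 with the largest bounds, per direction, up to 4 called and 3 bright uncalled members of each of 31 gene lists, and stem cell, reprogramming and X inactivation genes. The comparison, lists and names were chosen with earlier results of these data known. Promoter windows were matched by symbol to RefSeq (76 of 99 called genes). The fit was checked on simulated data. Alternatives were another background correction, scaling, the authors' values, filters, slide, probe averaging, a test against no change and leaving out each array. Plots used Python 3.11.15 and matplotlib 3.10.9.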

Additional observations from a re-analysis of the deposited data

Results flagged for a closer look

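Among the 149 named genes, the 4 iNS3 arrays were searched for 1 array far from the other 3, which chance gives in about 1 of 20 groups. In 7 genes such an array was found, about as many as chance gives among 149. In 4 of these 7 it was replicate 4, the iNS3 array on the slide that held no iNS2 array. Replicate 4 read 6.65 for Myadm (others 6.01 to 6.02), 11.21 for Gap43 (others 11.58 to 11.60), 13.03 for Mcm4 (others 13.11 to 13.13) and 11.05 for Plxnb2 (others 10.72 to 10.75). Replicate 1 read 10.74 for Gm2a (others 10.88 to 10.91) and 5.63 for Pou5f1 (others 5.19 to 5.24). Replicate 3 read 6.0 for Myc (others 6.21 to 6.23). Myadm and Gm2a are the called genes among them, and their difference between the clones was 2.86 for Myadm without replicate 4 and -2.77 for Gm2a without replicate 1. The part of the slide in these values was not tested.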

How the results depend on the processing

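All 99 called genes kept their direction in every alternative, and 36 of the 50 called named genes kept the call in every setting that gave a value. Normexp with an offset of 50 called 65 genes, 38 of them higher in iNS3, with iNS5 nearer to iNS2 for 35. The authors' values called 139 (96 of the 99), with iNS5 nearer to iNS2 for 82. The test against no change called 3823 (1724 and 2099 by direction), with iNS5 nearer to iNS2 for 2847. Slide as a block gave 96 calls, the shared slide alone 83, and leaving out 1 array 89 to 97. Scaling arrays to a common median moved the median of all genes to 0.033 and called 73. The highest minus the lowest autosomal median was 0.123, and became 0.092 (normexp), 0.14 (median scaling), 0.113 (authors' values and slide block), 0.057 (no detection filter), 0.168 (detection in either clone), 0.137 (shared slide), 0.165 (only these 7 arrays), 0.118 (mean of probes) and 0.112 to 0.152 (leaving out 1 array). Of the 50 named calls, 8 were lost under normexp, 9 on the shared slide alone, 9 under median scaling and 5 with the mean of probes. Casp8, Cdkn2b, Mfng and Sfrp1 were among those lost under normexp. Those lost on the shared slide alone included Mfng (limma treat, adjusted p = 0.09), Sfrp1 (0.088) and Gpx1 (0.13). Tgfbr2 and Dusp4 were among those lost under median scaling and with the mean of probes. With the mean of probes Cdkn1a gained a call (limma treat, adjusted p = 0.00042). Positions of iNS5 have no value where only these arrays or their slide were fitted. No paired analysis was possible because the titles carry no replicate numbers. The cause of these shifts was not tested. With 1 line per clone, no array count can separate clone from conversion or culture.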

Other observations

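Probes without a single gene symbol held differences too. Of 2553 such probes past the same filter, 32 were called between iNS2 and iNS3 (1.25%), 14 of them higher in iNS2, beside 150 of 15972 probes with 1 symbol (0.939%). They cannot be described by gene here.

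Of the 18 uncalled members of the list of cell cycle inhibitors and p53 targets, 5 had a difference above 0 and 13 below 0, from -1.26 to 1.11. The p53 targets given here were chosen after their values were seen. Phlda3 differed by -1.26 ± 0.07 SE (limma treat, adjusted p = 0.074), Trp53inp1 by -1.06 ± 0.06 SE, Bbc3 by -0.96 ± 0.07 SE, Zmat3 by -0.66 and Mdm2 by -0.52 ± 0.06 SE, and only Phlda3 had an adjusted p under 1. In each of Phlda3, Trp53inp1, Bbc3 and Mdm2 the arrays of the clones did not overlap, as was so for 40.9% of all genes. Sesn1 differed by 0.25 and Gadd45b by 0.14.

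The 7 tested genes of the mitochondrial chromosome had a median difference of -0.226, between -0.293 and -0.160 when single arrays were read, and none was called.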
